A study of Homo sapiens with 12 samples.

Results

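SESN1, SESN2, SESN3 and DDIT4 encode proteins that hold back mTORC1, the kinase complex that drives protein synthesis and growth when nutrients are present. These 4 genes were followed out of 60754 listed in each library, and all 4 passed the filter on low counts with 13422 genes in all. They were selected on their expected counts in the 12 libraries, by cell line and dose. Their levels and changes are therefore given as a description, with no test.

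Sestrins bind GATOR2, an activator of the pathway that senses amino acids at the lysosome, and leucine releases SESN2 and SESN1 from it. A sestrin bound to GATOR2 keeps it from relieving the brake that GATOR1 puts on the Rag GTPases, so mTORC1 stays off. DDIT4, also called REDD1, acts on another arm, in which the TSC complex switches off RHEB, the GTPase that activates mTORC1. In many cell types SESN1 and SESN2 are targets of p53, SESN2 and DDIT4 of the stress factor ATF4, SESN3 of FOXO factors, and DDIT4 also of hypoxia-inducible factors and the glucocorticoid receptor. Activity of mTORC1 and protein levels were not measured here.

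Molm-14 and HL-60 are acute myeloid leukemia (AML) cell lines. Molm-14 cells are monocytic and carry an MLL fusion and FLT3-ITD, while HL-60 cells are promyelocytic. Each line was kept for 36 h without drug or with Duocarmycin SA (DSA), an alkylating agent that binds the DNA minor groove. Molm-14 cells received 11.1 pM or 100 pM and HL-60 cells 112.7 pM or 500 pM, with 2 libraries in each of the 6 groups. All Molm-14 groups were grown in RPMI with 10% serum and all HL-60 groups in IMDM with 20% serum. Line, dose, medium and serum therefore cannot be told apart in any comparison between the lines. The labels call the controls untreated, whereas the methods describe treatment with vehicle or DSA.

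The libraries summed to between 21177407 and 63927420 expected counts, and both HL-60 controls (40518664 and 63927420) were deeper than the 4 treated HL-60 libraries (21177407 to 32012128). The lines differed in their markers. MPO, the peroxidase of promyelocyte granules, had a mean of 57.9 TPM in Molm-14 and 6402 TPM in HL-60 controls. The corresponding levels of HOXA9, a target of MLL fusions, were 106 and 0.085 TPM. PRTN3, another granule gene, was higher in HL-60 than in Molm-14 controls (2876 against 733 TPM), whereas the granule genes ELANE (623 against 1225 TPM) and AZU1 (261 against 1919 TPM) were lower, so granule genes alone did not set the lines apart in the direction of their labels. The summed level of 10 markers of other cell types was higher at the high doses, with 21.4 and 22.1 TPM in Molm-14 controls and 47.0 and 49.1 TPM at 100 pM, and 3.82 and 4.28 TPM in HL-60 controls and 13.3 and 16.9 TPM at 500 pM. Most of it was PECAM1, which myeloid cells also express and whose mean went from 21.4 to 47.8 TPM and from 3.48 to 11.9 TPM. The T cell gene CD3E went from 0.280 to 2.32 TPM in HL-60 cells, between 3 and 7 of the 10 markers were at 0 in each library, and the B cell marker MS4A1 and the hemoglobin gene HBB were at 0 in every library. Mitochondrial genes took 1.47% to 1.68% of counts in Molm-14 controls and 2.72% to 4.09% at 100 pM, and 2.22% to 2.47% in HL-60 controls and 4.64% to 5.46% at 500 pM. The part of these markers and of mitochondrial counts in the changes below was not tested.

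The genes lie apart from each other. On GRCh38, SESN1 spans chr6:108984309-109094846 on the minus strand, SESN2 spans chr1:28259518-28282491 on the plus strand, SESN3 spans chr11:95165513-95232541 on the minus strand and DDIT4 spans chr10:72273919-72276036 on the plus strand. The 250 bases before a RefSeq start site are shown for each, because the factors named above act on such regions. The windows were read 5′ to 3′ on the gene's strand from GRCh38.p14, and capitals mark the only 2 motif matches found. SESN1 has several starts, and the one printed, inside the gene at position 109008988, is the start with a match. The windows are chr6:109008989-109009238 for SESN1, chr1:28259268-28259517 for SESN2, chr11:95232476-95232725 for SESN3 and chr10:72273674-72273923 for DDIT4.
SESN1: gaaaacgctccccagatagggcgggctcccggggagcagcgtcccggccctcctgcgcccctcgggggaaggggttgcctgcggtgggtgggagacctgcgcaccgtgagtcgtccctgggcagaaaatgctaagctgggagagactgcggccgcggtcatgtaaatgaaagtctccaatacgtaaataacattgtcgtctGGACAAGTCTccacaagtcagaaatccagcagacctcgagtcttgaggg
SESN2: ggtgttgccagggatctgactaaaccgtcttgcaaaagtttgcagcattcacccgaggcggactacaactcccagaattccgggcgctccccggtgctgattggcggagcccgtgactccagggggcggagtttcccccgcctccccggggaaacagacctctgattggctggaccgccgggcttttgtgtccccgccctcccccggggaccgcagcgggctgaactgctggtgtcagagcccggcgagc
SESN3: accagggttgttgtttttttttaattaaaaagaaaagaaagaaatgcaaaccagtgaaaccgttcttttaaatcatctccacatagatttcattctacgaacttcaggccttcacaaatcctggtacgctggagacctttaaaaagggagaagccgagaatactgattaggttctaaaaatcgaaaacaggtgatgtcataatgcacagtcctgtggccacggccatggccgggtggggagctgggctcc
DDIT4: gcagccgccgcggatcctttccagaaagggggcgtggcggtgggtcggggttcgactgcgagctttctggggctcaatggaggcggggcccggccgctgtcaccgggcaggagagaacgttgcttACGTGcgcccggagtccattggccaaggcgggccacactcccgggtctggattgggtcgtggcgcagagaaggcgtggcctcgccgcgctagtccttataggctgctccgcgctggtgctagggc
The SESN3 window stood out for its base composition, with 42.8% G and C against 60.4% for SESN1, 65.6% for SESN2 and 68.8% for DDIT4. In GENCODE, however, the start used for this window is that of a 541-base SESN3 transcript. The 9563-base transcript of SESN3, nearest to the mean lengths given below, starts downstream at position 95231202. The bases before that start were not searched. The windows of all 6 start sites of the members (3 of SESN1) were searched on both strands for 5 motifs, chosen after the values of the genes were seen. The core of the hypoxia response element, ACGTG, matched once in DDIT4, 125 bases before the start, and matched in 18.5% of 34933 promoter windows of the same length. The p53 half-site matched once in SESN1, 49 bases before the start printed above, and is held by 5.58% of windows. The ATF4 motif TGATGNAAN (3.14% of windows), the FOXO motif TGTTTAC (2.98%) and the E-box CACGTG (6.32%), which contains the hypoxia core, had no match in the windows of the members. A match is a run of letters and was not read as a bound site.

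SESN1 was higher with DSA in Molm-14 cells, while its HL-60 libraries overlapped. Its level, in counts scaled by TMM to a common library total (CPM), was 37.5 and 35.9 in Molm-14 cells without DSA, 40.9 and 43.6 at 11.1 pM and 86.7 and 90.5 at 100 pM. The libraries at 100 pM lay far above the other 4, and those at 11.1 pM lay just above both controls. In HL-60 cells it was 6.22 and 5.41 CPM in controls, 5.78 and 5.61 CPM at 112.7 pM and 5.90 and 6.42 CPM at 500 pM, with treated libraries overlapping the controls at both doses. The log2 fold change against control was 0.20 (SE 0.056) at 11.1 pM and 1.27 (SE 0.053) at 100 pM in Molm-14 cells, the latter a 2.41-fold higher level. In HL-60 cells it was -0.02 (SE 0.105) at 112.7 pM and 0.11 (SE 0.101) at 500 pM.

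SESN2, the stress-induced sestrin, moved the other way in Molm-14 cells. It stood at 97.3 and 93.5 CPM in Molm-14 controls, 85.7 and 88.6 CPM at 11.1 pM and 49.3 and 48.9 CPM at 100 pM, with no overlap among the 3 groups. The HL-60 libraries held 10.4 and 11.1 CPM without DSA, 9.11 and 9.85 CPM at 112.7 pM and 14.9 and 15.5 CPM at 500 pM. The low dose lay just below the HL-60 controls and the high dose above them. The log2 fold changes were -0.13 (SE 0.043) and -0.96 (SE 0.045) in Molm-14 cells at the low and high dose, and -0.18 (SE 0.076) and 0.50 (SE 0.068) in HL-60 cells. SESN2 was thus 1.94-fold lower at 100 pM in Molm-14 cells and 1.41-fold higher at 500 pM in HL-60 cells.

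SESN3, the sestrin tied to FOXO factors, had the widest range of the 4 as a ratio of its highest to its lowest level. It stood at 4.33 and 3.77 CPM in Molm-14 controls, 4.44 and 5.60 CPM at 11.1 pM and 12.5 CPM in both libraries at 100 pM. In HL-60 cells it began at 120 and 109 CPM and was lower at each dose, with 67.7 and 59.8 CPM at 112.7 pM and 34.1 and 31.6 CPM at 500 pM. No groups overlapped within a line. The log2 fold change was 0.32 (SE 0.148) and 1.63 (SE 0.124) in Molm-14 cells, and -0.85 (SE 0.063) and -1.81 (SE 0.068) in HL-60 cells, at the low and high dose. The high dose thus went with a 3.10-fold higher level in Molm-14 cells and a 3.50-fold lower one in HL-60 cells.

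DDIT4, the inhibitor that works through the TSC complex, was like SESN2 lower in Molm-14 cells and higher in HL-60 cells at the high dose. The Molm-14 libraries held 509 and 508 CPM in controls, 458 and 459 CPM at 11.1 pM and 265 and 243 CPM at 100 pM, in 3 groups that did not overlap. The HL-60 libraries held 26.4 and 25.2 CPM in controls, 26.4 and 27.0 CPM at 112.7 pM and 46.6 and 44.8 CPM at 500 pM. At 112.7 pM the lower of the treated libraries, at 26.41 CPM, lay just above the higher control, at 26.36 CPM. In TPM the libraries at 112.7 pM (20.35 and 19.54) overlapped the controls (20.6 and 19.38). The libraries at 500 pM stood clear of the controls. SESN2 lay below its HL-60 controls at 112.7 pM. The log2 fold changes were -0.15 (SE 0.037) and -1.002 (SE 0.037) in Molm-14 cells and 0.06 (SE 0.057) and 0.83 (SE 0.052) in HL-60 cells. In these bulk samples, fewer cells that express a gene and less of its RNA per cell cannot be told apart.

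**Figure D1:**
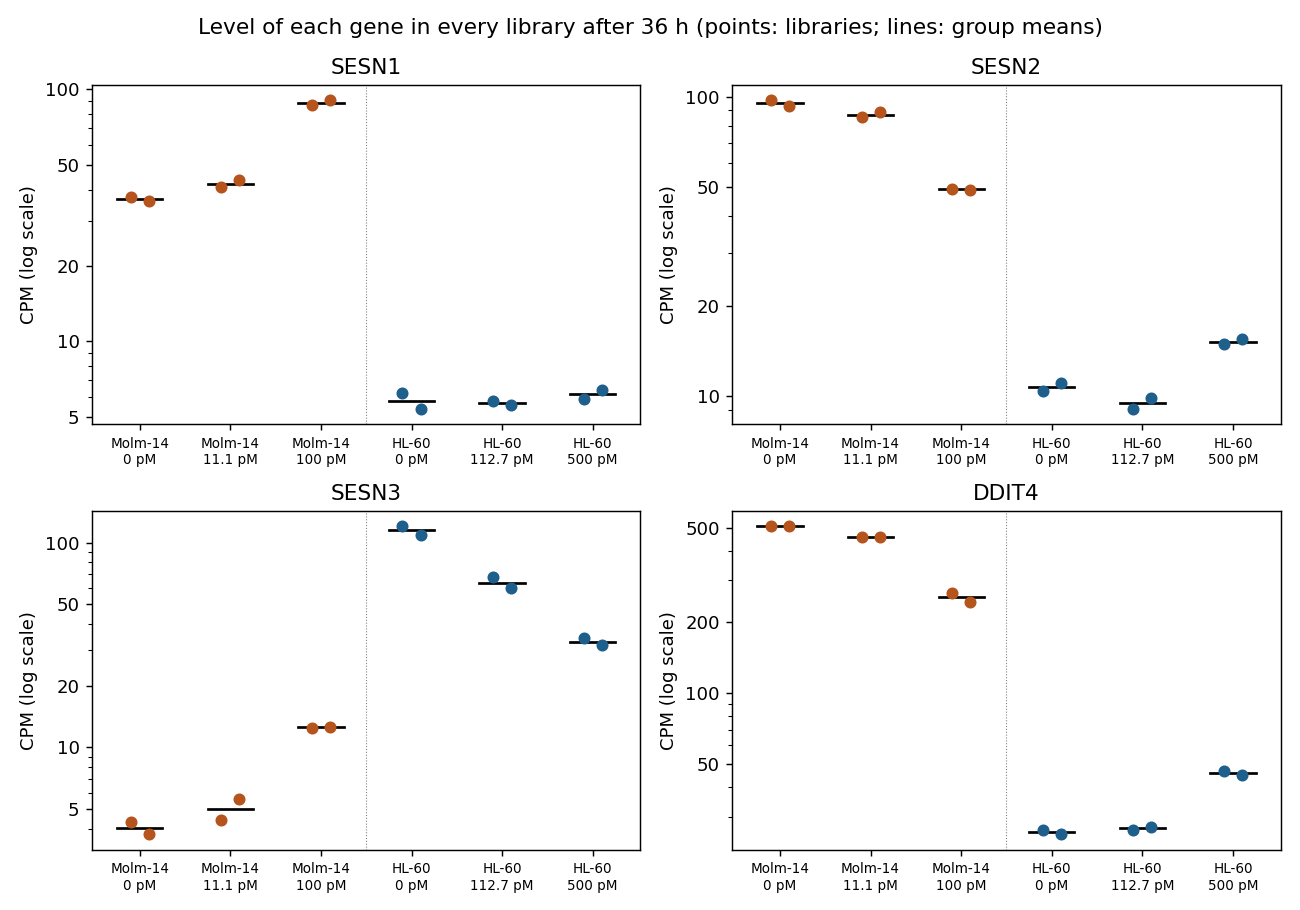
CPM of SESN1, SESN2, SESN3 and DDIT4 (log scale, 1 panel per gene) in each of the 12 libraries by line and DSA dose, with 2 points per group and a line at the group mean. SESN1 and SESN3 are higher and SESN2 and DDIT4 lower in Molm-14 cells at 100 pM, while at 500 pM HL-60 cells show less SESN3, more SESN2 and DDIT4 and SESN1 at 5.90 and 6.42 CPM against 6.22 and 5.41 CPM in controls.

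Across all genes tested with edgeR at an adjusted p under 0.05, 22.9% rose and 21.9% fell at 100 pM in Molm-14 cells, and 35.8% rose and 37.8% fell at 500 pM in HL-60 cells. At the low doses, Molm-14 cells had 0.969% of genes higher and 0.238% lower, and HL-60 cells had 24.2% higher and 27.4% lower. No calls are given for the 4 members, since the same values chose them. The share of all genes whose groups of 2 libraries also did not overlap is not given here. The lack of overlap noted for members is thus only a description of their values. Scaling by total counts, without TMM factors, moved the share of higher genes among those called in HL-60 cells from 46.9% to 61.1% at 112.7 pM and from 48.6% to 65.1% at 500 pM.

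The step between the doses carried most of the change in Molm-14 cells. From 11.1 to 100 pM the log2 difference was 1.07 (SE 0.052) for SESN1, -0.83 (SE 0.045) for SESN2, 1.312 (SE 0.116) for SESN3 and -0.85 (SE 0.037) for DDIT4. In HL-60 cells, SESN3 was lower at 112.7 pM than in controls and lower again at 500 pM, with a log2 difference of -0.96 (SE 0.073) between the doses. SESN2 and DDIT4 were higher at 500 than at 112.7 pM by 0.68 (SE 0.078) and 0.77 (SE 0.057), whereas SESN1 differed by 0.13 (SE 0.115). The nearest doses in the lines were 100 pM and 112.7 pM, which were not equal and are set side by side without a comparison. At these doses the log2 fold changes in Molm-14 and HL-60 cells were 1.27 and -0.02 for SESN1, -0.96 and -0.18 for SESN2, 1.63 and -0.85 for SESN3 and -1.002 and 0.06 for DDIT4.

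**Figure D2:**
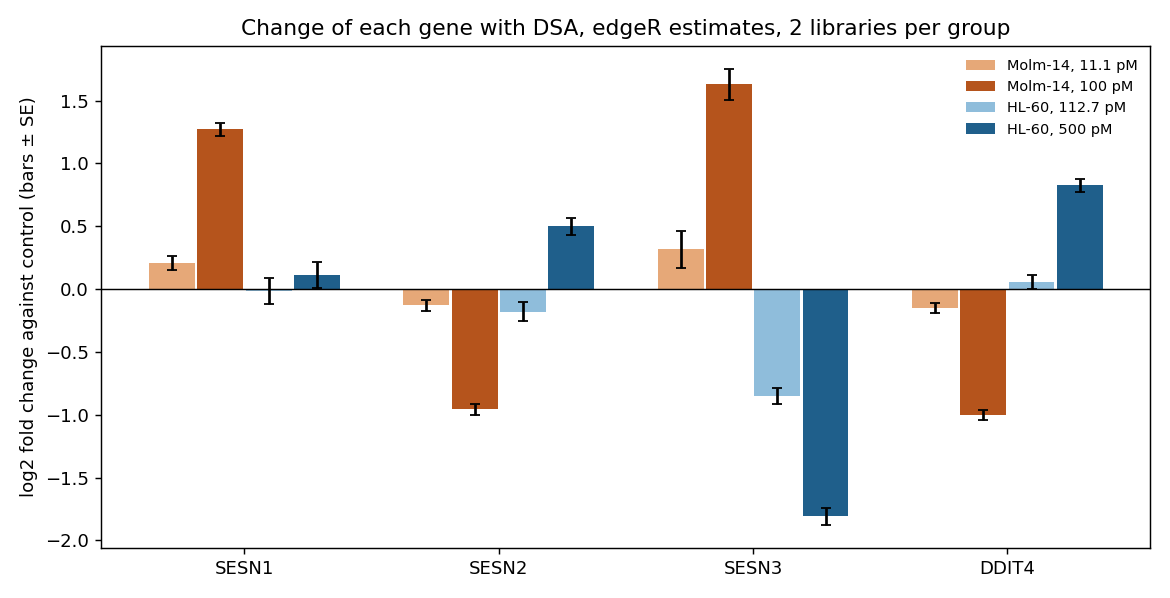
Log2 fold change of each gene against the controls of its line (bars) with its SE from edgeR (whiskers), for 2 libraries per group at the low and high DSA dose of each line. SESN3 has the tallest bars of the plot, 1.63 for Molm-14 cells and -1.81 for HL-60 cells at the high dose.

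Without drug, the RNA levels of the 4 genes differed between the lines. HL-60 controls had log2 levels lower than Molm-14 controls by -2.67 (SE 0.071) for SESN1, -3.14 (SE 0.053) for SESN2 and -4.31 (SE 0.045) for DDIT4, while SESN3 was higher by 4.82 (SE 0.092). These differences correspond to 6.38-fold, 8.83-fold and 19.8-fold lower levels and to a 28.3-fold higher level. Between the lines, the differences in each of the 4 genes exceeded those that DSA was seen with inside a line.

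Per length, in the deposited TPM, which counts transcripts rather than reads, DDIT4 stood first in all 6 groups. In Molm-14 controls the mean level was 381 ± 6.73 TPM for DDIT4, 31 ± 0.453 TPM for SESN2, 18.7 ± 1.02 TPM for SESN1 and 0.460 ± 0.0424 TPM for SESN3 (mean ± SD, n = 2). At 100 pM SESN1, at 45.0 ± 0.679 TPM, stood above SESN2, at 15.7 ± 0.262 TPM, and DDIT4 was at 191 ± 8.92 TPM and SESN3 at 1.43 ± 0.0141 TPM. The order of SESN1 and SESN2 thus turned with dose in Molm-14 cells. In HL-60 controls DDIT4 was at 20.0 ± 0.863 TPM, SESN3 at 13.9 ± 0.969 TPM, SESN2 at 3.68 ± 0.120 TPM and SESN1 at 2.74 ± 0.537 TPM. At 500 pM DDIT4 stood at 36.8 ± 0.587 TPM, SESN2 at 5.42 ± 0.177 TPM, SESN3 at 4.46 ± 0.120 TPM and SESN1 at 3.12 ± 0.375 TPM, so that SESN2 had passed SESN3. The 2 libraries of neighbouring genes in these orders did not overlap in any of the 6 groups.

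The sum over the 3 sestrins was 51.3 and 49.1 TPM in Molm-14 controls, 49.0 and 51.7 TPM at 11.1 pM and 61.4 and 62.8 TPM at 100 pM. SESN2 supplied 61.1% and 62.5% of this sum in controls and 25.3% in each library at 100 pM, while SESN1 went from 37.9% and 36.7% to 72.4% in each. In HL-60 cells the sum was 21.3 and 19.4 TPM in controls, 13.48 and 13.04 TPM at 112.7 pM and 12.7 and 13.3 TPM at 500 pM. SESN3 made up 68.5% and 68.4% of it in controls, 60.3% and 56.5% at 112.7 pM and 35.8% and 32.9% at 500 pM. SESN2 accounted for 16.8% and 19.4% of the sum in HL-60 controls and 41.7% in each library at 500 pM. The ratio of DDIT4 to the sestrin sum was 7.33 and 7.85 in Molm-14 controls and 3.21 and 2.94 at 100 pM, and 0.966 and 1.001 in HL-60 controls and 2.94 and 2.74 at 500 pM. The ratio was thus lower at the high dose in Molm-14 cells and higher in HL-60 cells.

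**Figure D3:**
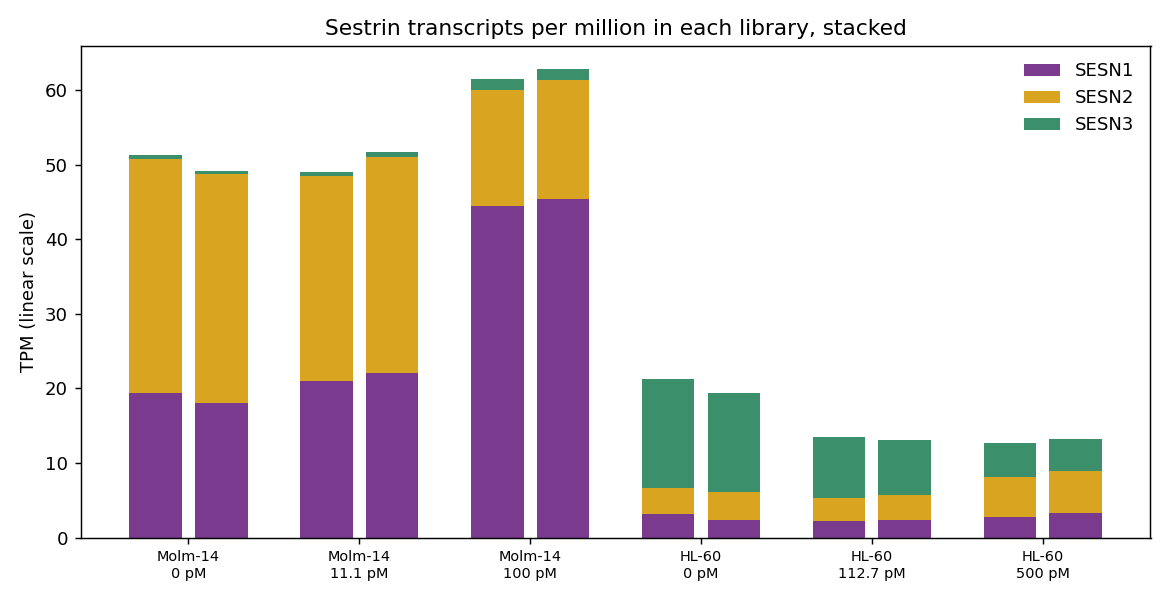
TPM of SESN1, SESN2 and SESN3 stacked for each of the 12 libraries (linear scale from 0), ordered by line and DSA dose. SESN1 replaces SESN2 as the main part in Molm-14 cells at 100 pM, and the SESN3 part shrinks in HL-60 cells from 68.5% and 68.4% to 35.8% and 32.9% of the sum.

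RSEM also gives each gene a mean transcript length, weighted by the abundance of its transcripts, which did not enter the choice of the members and could be tested. With limma over 12427 genes of variable length, 0.0402% and 0.137% of genes changed length at 11.1 and 100 pM in Molm-14 cells, and 1.48% and 2.22% at 112.7 and 500 pM in HL-60 cells. By limma, no member passed this test after adjustment. SESN3 had a mean length of 9430 ± 98.7 bases in HL-60 controls and 8799 ± 199 bases at 500 pM (mean ± SD, n = 2), a log2 difference of -0.10 (SE 0.033, adjusted p = 0.197 by limma). In 11.1 pM and control Molm-14 libraries its length was 9558 bases, near the annotated 9563 bases of its longest transcript. DDIT4 differed by -0.03 (SE 0.017, adjusted p = 0.738 by limma) at 100 pM in Molm-14 cells. SESN1 had mean lengths of 2248 to 2273 bases over the Molm-14 groups and 2497 to 2900 bases over the HL-60 groups, against 2718 and 2676 bases for the protein-coding transcripts from its internal starts and 5664 bases for that from its far start. Its difference at 112.7 pM was 0.17 (SE 0.079, adjusted p = 0.409 by limma). SESN2 has a single annotated transcript of 3462 bases and could not be tested.

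Other genes overlap 2 of the members. LNCRNA-IUR, on the opposite strand of SESN3, had 3 to 9 counts in Molm-14 and 12 to 101 counts in HL-60 libraries, and the gene ENSG00000271730, opposite SESN1, had at most 2 counts. The sources used here do not say if strand was used in counting, and without it reads of SESN3 and its antisense partner could not be told apart.

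The rest of the pathway was read from 13 lists with 158 genes, of which 152 were tested. At 100 pM in Molm-14 cells 54 of the 152 were higher and 41 lower, and at 500 pM in HL-60 cells 58 were higher and 65 lower, to be read against the 22.9%, 21.9%, 35.8% and 37.8% of all genes given above. At 112.7 pM 35 rose and 52 fell. With total counts alone the numbers in HL-60 cells were 79 and 38 at 500 pM and 51 and 38 at 112.7 pM, so the balance of directions there depends on scaling, and RLE factors gave 47 and 43 at 112.7 pM. At 11.1 pM there were 4 higher and 5 lower. The higher ones were the p53 targets MDM4, CDKN1A, GADD45A and DDB2, and the lower ones were TRIB3, ASNS, PHGDH, EIF4EBP1 and TSC22D3. These 9 calls were fragile, for leaving out 1 control (replicate 1) left 0 of the 152 genes past the threshold by edgeR.

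Of 5 tested subunits of GATOR2, the complex that sestrins bind, 4 fell in HL-60 cells at 500 pM and WDR59 was at 0.10 (adjusted p = 0.0854), with a median log2 change of -0.69, and in Molm-14 cells at 100 pM 3 were lower and 1, WDR59, higher, with a median of -0.16. SEH1L fell by 0.89 in log2 units (SE 0.038, adjusted p = 2.58e-13) in HL-60 cells, from 158 ± 4.26 to 85.5 ± 1.83 CPM (mean ± SD, n = 2), and by 0.27 (SE 0.038, adjusted p = 1.1e-05) in Molm-14 cells. MIOS, a scaffold subunit, fell by 0.85 (SE 0.060, adjusted p = 2.54e-10) in HL-60 cells. It differed by -0.06 (SE 0.059, adjusted p = 0.486) in Molm-14 cells. SEC13, shared with coat and nuclear pore complexes, fell by 0.69 and 0.16 in HL-60 and Molm-14 cells (adjusted p = 1.39e-11 and 0.00393).

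GATOR1, which inhibits the Rag GTPases, and KICSTOR, which holds it at the lysosome, had medians near 0, at -0.04 and 0.01. Of 7 genes, 1 was lower (NPRL3) at 100 pM in Molm-14 cells, while 2 fell at 500 pM in HL-60 cells, where the KICSTOR gene KICS2 fell by 0.76 (SE 0.103, adjusted p = 2.01e-06). Of 16 genes for Rag GTPases, Ragulator and amino acid sensors, Molm-14 cells had 2 higher and 1 lower, and HL-60 cells 6 in each direction, at the high doses. FNIP1 and FLCN, partners in the complex that activates RRAGC and RRAGD, rose by 0.42 (SE 0.080, adjusted p = 0.00011) and 0.36 (SE 0.064, adjusted p = 4.98e-05) at 500 pM in HL-60 cells. The median over the list was 0.05 and 0.01 in the lines, beside 0.0038 and 0 over all genes tested.

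The TSC arm, on which DDIT4 acts, changed by small amounts, with at most 0.46 in either direction among its 7 tested genes. At 100 pM Molm-14 cells showed 2 higher and 1 lower, and at 500 pM HL-60 cells showed 3 in each direction. TSC1, the stabilising subunit of the complex, rose in both lines, by 0.26 (SE 0.053, adjusted p = 0.000575) in Molm-14 cells and by 0.30 (SE 0.047, adjusted p = 1.39e-05) in HL-60 cells. AKT1, a kinase that inhibits the TSC complex, fell by 0.17 in Molm-14 cells (SE 0.043, adjusted p = 0.00324) and rose by 0.43 in HL-60 cells (SE 0.042, adjusted p = 2.12e-08). DDIT4L, the paralog of DDIT4, was not among the genes that passed the filter on low counts.

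Of 10 genes for the mTOR complexes, 4 were higher and 2 lower at 100 pM in Molm-14 cells, whereas 1 was higher and 8 were lower at 500 pM in HL-60 cells, with medians of -0.02 and -0.33. MLST8, a subunit of both mTOR complexes, fell in both, by 0.66 (SE 0.041, adjusted p = 3.02e-10) in Molm-14 and 0.56 (SE 0.039, adjusted p = 2.08e-10) in HL-60 cells. AKT1S1, an inhibitory subunit of mTORC1, rose by 0.39 (SE 0.048, adjusted p = 2.07e-06) in Molm-14 cells and by 0.12 (SE 0.043, adjusted p = 0.0209) in HL-60 cells. Of 8 genes of AMPK, an energy sensor that sestrins can bind, and its kinase LKB1, 6 rose and 1 fell in Molm-14 cells, whereas 1 rose and 4 fell in HL-60 cells. CAB39, a partner of LKB1, rose by 0.22 in the former (SE 0.042, adjusted p = 0.000251) and fell by 0.41 in the latter (SE 0.040, adjusted p = 2.64e-08).

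Among 17 genes downstream of mTORC1, 5 rose and 6 fell with 100 pM in Molm-14 cells, and 5 rose and 10 fell with 500 pM in HL-60 cells. EIF4EBP1, the translation repressor that mTORC1 phosphorylates, fell by 0.95 (SE 0.040, adjusted p = 1.08e-12) in Molm-14 cells and by 0.32 (SE 0.047, adjusted p = 6.05e-06) in HL-60 cells. GRB10, an mTORC1 substrate that dampens insulin signalling, fell by 0.98 (SE 0.044, adjusted p = 2.56e-12) and 0.58 (SE 0.040, adjusted p = 1.82e-10) in the same order. TFEB, the lysosomal transcription factor that mTORC1 keeps in the cytoplasm, rose from 1.497 ± 0.259 to 9.47 ± 0.576 CPM (mean ± SD, n = 2) in HL-60 cells, a log2 change of 2.61 (SE 0.119, adjusted p = 4.76e-13). In Molm-14 cells its change was 0.17 (SE 0.059, adjusted p = 0.0275).

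Sestrins also interact with the KEAP1 pathway and with peroxiredoxins. Of 13 genes of this redox list, 2 rose and 7 fell with 100 pM in Molm-14 cells, and 6 rose and 4 fell with 500 pM in HL-60 cells. SQSTM1, the autophagy adaptor that binds both sestrins and KEAP1, had log2 changes of 0.41 (SE 0.042, adjusted p = 1.62e-07) in the Molm-14 line and 1.98 (SE 0.040, adjusted p = 9.3e-18) in HL-60. HMOX1, which degrades heme, rose from 1.04 ± 0.00772 to 25.4 ± 2.52 CPM (mean ± SD, n = 2) in HL-60 cells and from 0.950 ± 0.136 to 2.89 ± 0.420 CPM in Molm-14 cells, log2 changes of 4.61 and 1.60 (adjusted p = 5.6e-15 and 4.48e-06). PRDX3, a mitochondrial peroxiredoxin, fell by 0.24 and 0.66 in Molm-14 and HL-60 cells (adjusted p = 8.76e-06 and 3.05e-12).

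Lists of the factors known to act on the members followed. Of 18 genes on the p53 target list, which leaves out the sestrins, 17 were higher at 100 pM in Molm-14 cells, with a median log2 change of 0.79. SESN1, at 1.27, stood above that median and SESN2, at -0.96, below every gene of the list. In HL-60 cells 9 were higher and 4 lower, with a median of 0.14. CDKN1A, the cell cycle inhibitor, rose from 321 ± 15.7 to 1010 ± 3.70 CPM in Molm-14 cells and from 0.468 ± 0.134 to 20.0 ± 0.544 CPM in HL-60 cells (mean ± SD, n = 2). DDB2, a DNA damage recognition factor, rose by 1.21 (SE 0.051, adjusted p = 8.7e-13) and 1.49 (SE 0.068, adjusted p = 4.67e-13). ZMAT3, an RNA-binding p53 target, rose by 1.44 in Molm-14 cells (SE 0.062, adjusted p = 1.41e-12) and fell by 0.84 in HL-60 cells (SE 0.078, adjusted p = 1.31e-08).

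Of 15 genes of ATF4 and its targets, 12 were lower in Molm-14 cells at 100 pM and 2, ATF3 and PPP1R15A, higher, with a median of -1.33. ASNS, asparagine synthetase, fell by 2.44 (SE 0.041, adjusted p = 4.02e-18), from 206 ± 2.04 to 38.0 ± 1.32 CPM (mean ± SD, n = 2). The serine synthesis genes PHGDH and PSAT1 fell by 1.74 (SE 0.035, adjusted p = 4.01e-17) and 1.75 (SE 0.039, adjusted p = 1.38e-16). In HL-60 cells at 500 pM 9 genes of the list were higher and 5 lower, with a median of 0.48. The 9 higher were NUPR1, STC2, ATF3, DDIT3, CEBPB, CHAC1, SLC7A11, TRIB3 and PPP1R15A, in the direction of SESN2 and DDIT4. ATF4 itself fell by 0.61 in Molm-14 cells at 100 pM and by 0.69 in HL-60 cells at 500 pM (adjusted p = 3.96e-10 and 1.44e-11 by edgeR). ASNS, PHGDH and PSAT1 were among those that fell there too, by 0.73, 0.18 and 0.50 (adjusted p = 2.13e-11, 0.000143 and 2.22e-09), opposite to SESN2 and DDIT4 in the same libraries, although PHGDH was at 0.0039 (adjusted p = 0.928) with total counts alone.

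Of 15 tested genes of FOXO factors and their targets, 8 rose at 100 pM in Molm-14 cells, with a median of 0.17, while 5 rose and 6 fell at 500 pM in HL-60 cells, with a median of -0.02. CAT, which encodes catalase, rose by 0.69 in Molm-14 cells (SE 0.037, adjusted p = 2.58e-11) and fell by 0.14 in HL-60 cells (SE 0.036, adjusted p = 0.00225), the directions of SESN3. With total counts alone, the HL-60 value of CAT was 0.05 (adjusted p = 0.244). CCNG2 and GABARAPL1 rose in both lines, CCNG2 by 0.63 and 2.01 (adjusted p = 5.49e-06 and 6.47e-11) and GABARAPL1 by 0.86 and 1.19 (adjusted p = 1.63e-06 and 4.53e-11).

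DDIT4 is also known to be induced by hypoxia and glucocorticoids. Of 14 tested genes of hypoxia-inducible factors and their targets, the high doses gave 4 higher and 3 lower in Molm-14 cells, against 7 higher and 6 lower in HL-60 cells. VEGFA, the angiogenic growth factor, went in the directions of DDIT4, falling by 0.77 in Molm-14 cells (SE 0.036, adjusted p = 4.1e-12) and rising by 0.86 in HL-60 cells (SE 0.039, adjusted p = 3.91e-13). EGLN1, an oxygen-sensing hydroxylase, fell by 0.64 in HL-60 cells (SE 0.049, adjusted p = 8.71e-10) and was at 0.04 in Molm-14 cells (adjusted p = 0.428). ADM, the vasodilator adrenomedullin, rose by 1.24 in HL-60 cells (SE 0.116, adjusted p = 1.47e-08) and was at 0.30 in Molm-14 cells (adjusted p = 0.062). Of 7 genes of the glucocorticoid receptor and its targets, 3 fell in Molm-14 cells, and 3 rose and 3 fell in HL-60 cells. TSC22D3, a leucine zipper gene induced by glucocorticoids, was 1.003 higher in HL-60 cells (SE 0.098, adjusted p = 2.55e-08), and its Molm-14 libraries overlapped (log2 change -0.04, SE 0.078, adjusted p = 0.74). DUSP1, a phosphatase of MAP kinases, rose by 1.75 in HL-60 cells (SE 0.171, adjusted p = 2.61e-08) and was at 0.25 in Molm-14 cells (adjusted p = 0.16). FKBP5, a co-chaperone of the receptor, fell by 0.34 in Molm-14 cells (SE 0.034, adjusted p = 1.62e-07) and by 0.23 in HL-60 cells (SE 0.033, adjusted p = 4.15e-06), where it was at -0.04 (adjusted p = 0.211) with total counts alone.

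**Figure D4:**
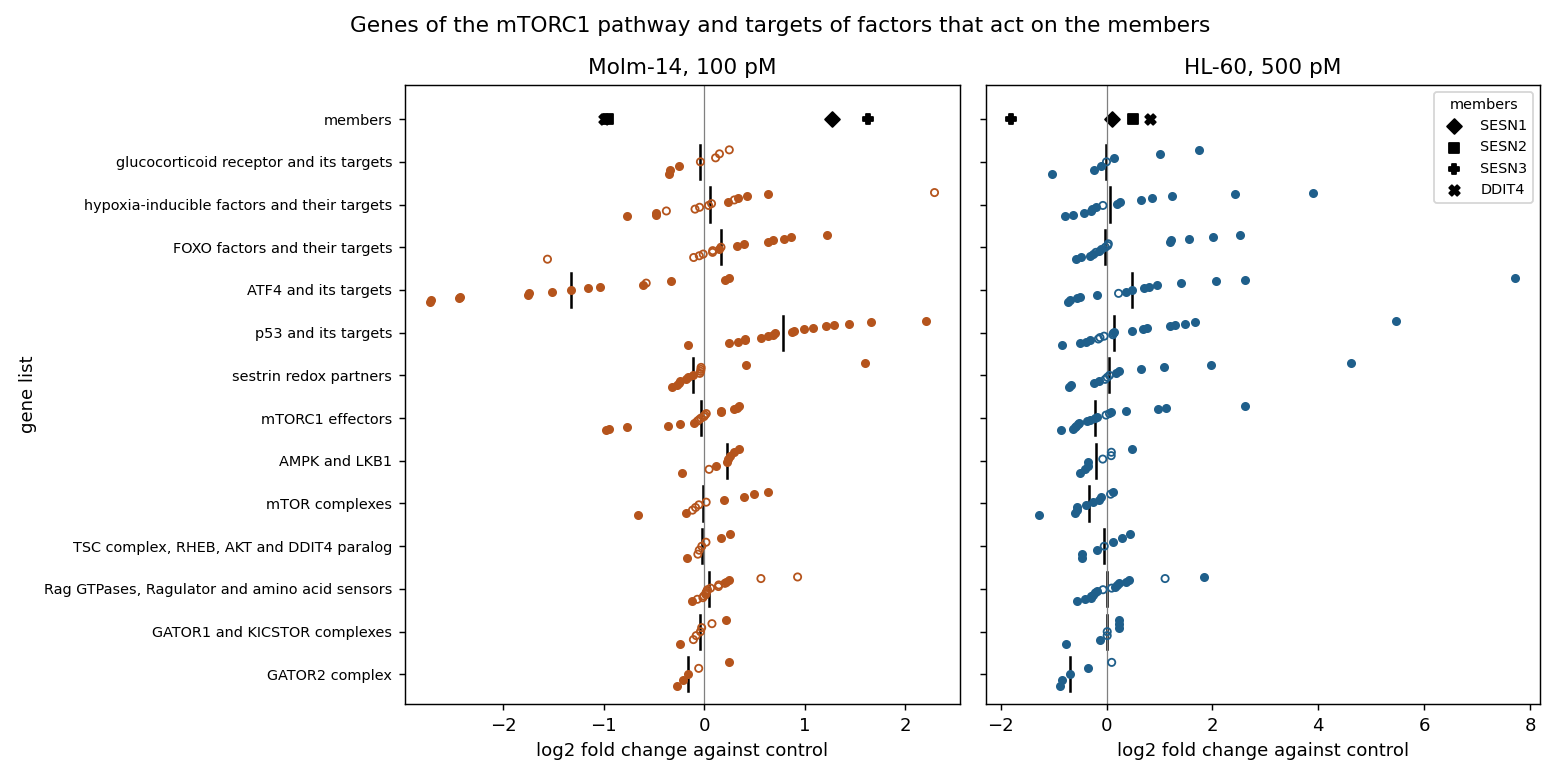
Log2 fold change against control at the high dose for each tested gene of the 13 lists (circles, filled where the adjusted p was under 0.05), with a bar at each list's median and the 4 members as black marks on the top row. Left, Molm-14 cells at 100 pM, and right, HL-60 cells at 500 pM, on axes of different range. The medians farthest from 0 are those of ATF4 (-1.33) and p53 (0.79) in Molm-14 cells and of GATOR2 (-0.69) and ATF4 (0.48) in HL-60 cells.

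The genes most like each member were sought over the 12 libraries by the Pearson correlation of log2 CPM, after the mean of each line was subtracted, in the 11288 genes that averaged 50 or more counts. The points share libraries and scaling factors, and the values are a description. For DDIT4 these were STC2, a secreted glycoprotein gene on the ATF4 list (r = 0.985), CDC25C, a mitotic phosphatase (r = 0.983), and CEP55, a factor of cell abscission (r = 0.982). STC2 changed by -2.73 in the Molm-14 line and by 2.62 in the HL-60 line at the high dose. For SESN2 they were CDC25C (r = 0.979), CHAC1, a glutathione-degrading enzyme on the ATF4 list (r = 0.977), and TEX30 (r = 0.974). CHAC1 changed by -2.72 in Molm-14 cells and by 0.80 in HL-60 cells. TNFSF13B, the B cell survival factor BAFF (r = 0.982), MFSD1 (r = 0.981) and FAM117B (r = 0.979) were nearest to SESN3, and TNFSF13B changed by 0.46 and -0.67. For SESN1, MTURN (r = 0.980) rose with it in Molm-14 cells, by 1.41, and changed by -0.10 in HL-60 cells (adjusted p = 0.0976). HLA-DQB1 (r = 0.984) and SEMA6A (r = 0.977) had 0 counts in all HL-60 libraries, so their likeness to SESN1 rests on the Molm-14 libraries, and reads of HLA-DQB1 may be shared with near-identical HLA genes.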

How the data were processed

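Sequenced RNA of both lines was analysed, with 2 libraries in each of 6 groups taken from the sample labels. The authors trimmed reads with Trim Galore (0.60), mapped them to hg38 with STAR (2.7) and estimated counts with RSEM (1.31), using release 31 of GENCODE. The deposited expected counts, which carry no filter or scaling, were rounded and used for all changes. The deposited TPM, scaled by the authors for transcript length and library depth, were used for levels between genes. The length given in the same deposited files is the mean of a gene's transcripts. The FPKM were not used.

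Symbols, types and positions came from GENCODE release 44, in which 60261 of 60754 identifiers matched. The 19868 protein-coding genes of level 1 or 2 were kept, without 45 pseudoautosomal Y copies. edgeR 4.0.16 (R 4.3.3) with filterByExpr, TMM factors and glmQLFTest over all 12 libraries tested 13422 genes, with Benjamini-Hochberg adjustment over all of them and a threshold of 0.05. The SE is the log2 fold change divided by the square root of F. Mean lengths were compared with limma 3.58.1 on log2 values. Steps were tested on simulated data. Alternatives were DESeq2 1.42.0, limma-voom, RLE factors, total counts alone, no filter, genes averaging 50 or more counts, all gene types, only the samples compared, the replicate number as a block, and leaving out each library in turn.

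The members and the gene lists were chosen with earlier results of these data known. From each list up to 3 genes with the smallest p at a high dose were named, and for each member the 3 genes most like it. Where a count of 5 or fewer is given, its genes were partly named after their values were seen. Some results of the lists are not reported here. Promoter sequences are from RefSeq, and start sites of all 4 members were found. Neither labels nor methods say whether libraries came from separate cultures, so p-values cover the variation among these libraries, which could be technical. Libraries of a group differed by more than sampling noise.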

Additional observations from a re-analysis of the deposited data

Results flagged for a closer look

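In the following genes every library at the high dose lay beyond both controls of its line, in opposite directions in Molm-14 and HL-60 cells. The share of all genes tested that meet this rule is not given here, and with 2 libraries per group unchanged genes can also meet it. The list is thus only a description of these values. Where the change in Molm-14 cells did not pass the test, as stated below, opposite directions were not established. The difference between the lines was not tested, since dose, medium and serum differed with the line.

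The log2 fold change in HL-60 cells at 500 pM minus that in Molm-14 cells at 100 pM was 1.46 for SESN2 (0.50 and -0.96), -3.44 for SESN3 (-1.81 and 1.63) and 1.83 for DDIT4 (0.83 and -1.002). Among genes that act on or with the members, it was 0.43 for FLCN, -0.36 for LAMTOR3, a Ragulator subunit, -0.48 for AKT2, 0.60 for AKT1 and -0.63 for CAB39. Among targets of factors that act on the members, it was -2.27 for ZMAT3, -0.83 for CAT, 1.64 for VEGFA and -0.68 for EGLN1, an oxygen-sensing hydroxylase. Changes of FLCN, LAMTOR3, AKT2 and EGLN1 in Molm-14 cells (-0.07, 0.06, 0.02 and 0.04) did not pass the test, with adjusted p of 0.347, 0.427, 0.741 and 0.428 by edgeR. With total counts alone, the HL-60 changes of LAMTOR3 and CAT were -0.12 and 0.05 and no longer passed (adjusted p = 0.0588 and 0.244). SESN1 is not among these genes, as its HL-60 libraries overlapped.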

How the results depend on the processing

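Over 14 alternatives each, the log2 fold change at the high dose in Molm-14 cells ran from 1.24 to 1.30 for SESN1, -0.99 to -0.93 for SESN2, 1.53 to 1.73 for SESN3 and -1.06 to -0.94 for DDIT4. In HL-60 cells it ran from 0.46 to 0.68, -1.88 to -1.62 and 0.79 to 1.01 for SESN2, SESN3 and DDIT4. SESN1 in HL-60 cells changed sign in 6 alternatives at the low dose (-0.24 to 0.07) and in 1 at the high dose (-0.01 to 0.29), and DDIT4 at the low dose in 1. Without TMM factors (total counts alone) the median of all genes was 0.18 at 500 pM and gave 0.68 for SESN2, -1.62 for SESN3, 1.01 for DDIT4 and 0.29 for SESN1, and 0.13 for DDIT4 at 112.7 pM. On deposited TPM, with no test, SESN3 at 500 pM was at -1.65, and at 112.7 pM SESN1 was at -0.24 and DDIT4 at -0.0033. DDIT4 at 11.1 pM was at -0.15 with DESeq2, RLE factors or only the samples compared, -0.13 with total counts, and -0.16 with all gene types, no filter or TPM, small moves beyond the narrow spread of its libraries.

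At 11.1 pM 162 genes were called, 468 with no filter, 271 with only the samples compared and 4 to 96 with 1 library left out, where Molm-14 control replicate 1 gave the lowest count. Of the listed pathway genes 9 were called there, 20 with no filter, 15 with only the samples compared and 0 to 5 with 1 library left out. Mean length changed in 276 genes at 500 pM (77 to 294 with 1 library left out) and in 184 at 112.7 pM (62 to 159), where leaving out HL-60 control replicate 1 gave the lowest counts, and in 17 at 100 pM (24 to 40) and 5 at 11.1 pM (15 to 42), where leaving out Molm-14 control replicate 1 gave the highest. Restricted to genes averaging 50 or more counts the latter counts were 4 and 0. A group left with 1 library is assumed to vary like the other groups.

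Replicate differences of the groups of a line correlated weakly (r of -0.0736 to 0.172). Such values cannot show whether samples with the same replicate number shared a culture or a batch. A fit with the replicate number as a block gave 51, 11, 2 and 3 genes of changed length at 500, 112.7, 100 and 11.1 pM, and changed no other count of calls by over 1.5 times. With 2 libraries per group, small changes such as those at 11.1 pM were near the limit of what could be detected.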
